A study of Mus musculus with 12 samples.

Results

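Expression of the genes that take up, bind and activate long-chain fatty acids was measured by RNA-seq in the livers of 12 male mice. The set was chosen by symbol, as 10 listed genes: the uptake genes Cd36, Slc27a2 and Slc27a4, the binding protein genes Fabp1, Fabp2, Fabp4 and Fabp5, and the acyl-CoA synthetase genes Acsl1, Acsl3 and Acsl5. Of these, 9 had a row of their own among 23849 symbols, and all 9 passed the minimum of 1 FPKM on average (read fragments scaled by transcript length and by the size of the library), as did 9806 symbols in all. Acsl3 appeared only in a row shared with Utp14b and was counted apart.

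The mice were 8 weeks old, of C57BL/6J background, and all were fed a high-fat diet (HFD), so no group shows the liver on normal chow. Controls received vehicle, which was drinking water, and treated mice received Libramed, the name in the sample labels for the gel-forming fiber product Policaptil Gel Retard. Both were given by gavage once a day, just before lights off, for 2 weeks. By the study's account these were the last 2 weeks of the HFD, which had begun earlier. Livers were collected at ZT0 (lights on, the end of the active phase) or at ZT12 (lights off, its beginning), with 3 mice in each of the 4 groups.

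Long-chain fatty acids reach the hepatocyte from the blood, bound to albumin. CD36 and the fatty acid transport proteins of the Slc27 family promote their entry, cytosolic fatty acid binding proteins carry them through the cell, and long-chain acyl-CoA synthetases of the Acsl family join them to coenzyme A. Only the acyl-CoA form can be burned in mitochondria and peroxisomes or built into triglycerides and phospholipids. Many of these genes are known targets of PPARα, the nuclear receptor that senses fatty acids in the liver.

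PPARα binds with its partner RXR to direct repeats of the hexamer AGGTCA spaced by 1 base. The repeat with any base as spacer (DR1), the hexamer itself, the E-box CACGTG, the D-box TTATGTAA and the TATA box TATAAA were searched on both strands of RefSeq promoters of 300 bases (build GRCm38.p6), which held 8 of the 10 genes. The stretches with the hexamer are shown because 3 genes that are compared here, Fabp1, Slc27a2 and Cd36, carry it. Each is written 5′ to 3′ on the strand of its gene, with the matches to the repeat or the hexamer in capitals.
Fabp1: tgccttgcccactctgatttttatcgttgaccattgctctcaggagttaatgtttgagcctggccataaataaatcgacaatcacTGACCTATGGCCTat
Slc27a2: accacgccttTGACCTtttcaacgtg
Cd36: ctgcactttaTGACCTgagattttca
The Fabp1 stretch is chr6:71199727-71199826 on the plus strand and ends 1 base before the GENCODE start of the gene. It holds the repeat with 1 mismatch on the opposite strand, from base -67 to base -55 of the RefSeq start, and 0.554% of 32851 promoters hold such a match. The hexamer inside it is counted again as AGGTCA. Fabp1 also had AGGTCA from base -9 to base -4, and TATAAA from base -30 to base -25. The Slc27a2 stretch is chr2:126552794-126552819 on the plus strand, and the Cd36 stretch is chr5:17836109-17836134 on the minus strand. Both lie within the GENCODE gene models, which begin further upstream. The hexamer AGGTCA was in 16.3% and TATAAA in 13.6% of all promoters. CACGTG, which 7.15% of promoters hold, and TTATGTAA, which 0.938% hold, were in none of the member promoters.

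The members covered a wide range of levels per transcript length. Fabp1, the liver-type binding protein, had the fifth highest mean of all symbols, at 17990 FPKM over the 12 livers. Slc27a2, a transporter that also activates very long-chain fatty acids, followed at a mean of 789 FPKM, and Fabp1 exceeded it in 12 of 12 mice by a geometric mean of 23.3-fold. Acsl1, the main acyl-CoA synthetase of the liver, came next at 274 FPKM, below Slc27a2 in 12 of 12 mice.

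**Figure D1:**
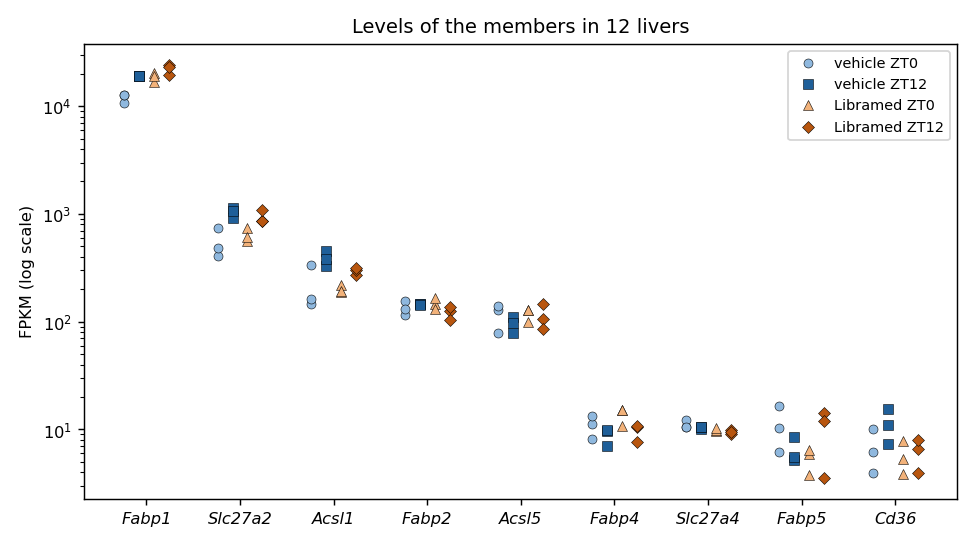
Levels of the 9 genes with a row of their own, as FPKM on a log axis, with 1 point per mouse and the 4 groups marked by colour and shape. Fabp1 lies above all others in every mouse, and a gap separates Acsl5 from Fabp4 and the genes to its right.

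Fabp2, named for the intestine, had a mean of 137 FPKM, and Acsl5, a synthetase of mitochondria and endoplasmic reticulum, a mean of 110.4 FPKM. Acsl1 exceeded Fabp2 in 11 of 12 mice, and Fabp2 exceeded Acsl5 in 9 of 12, with a ratio between 0.874 and 1.83 from mouse to mouse. The low members were Fabp4 at 10.8 FPKM, Slc27a4 at 10.2 FPKM, Fabp5 at 8.18 FPKM and Cd36 at 7.47 FPKM. Acsl5 exceeded Fabp4 in 12 of 12 mice by 10.3-fold, whereas none of the low 4 stood apart from its neighbour, with Fabp4 above Slc27a4 in 7 of 12 mice.

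The tissue and the depth were checked as follows. Of 8 hepatocyte markers, 7 had a mean of at least 1 FPKM, while Alb was listed at 0 in all 12 libraries, so a 0 in this table need not mean that a gene is silent. Library depth, known only relative to 1 library from the spacing of low values, ran from 0.712 to 1.28. Markers of skeletal muscle summed to 52.2 FPKM in replicate 3 of the Libramed group at ZT12 and to at most 1.59 FPKM elsewhere. Fabp3, the binding protein of muscle, was listed at 0 in all 12 libraries. Without that library, the rises at ZT12 in Libramed mice were 0.44 for Slc27a2 and 0.52 for Acsl1 in log2(FPKM + 1), and Acsl1 and Cd36 at ZT12 differed from vehicle by -0.42 and -0.94. The member that moved most without it was Fabp5, whose rise at ZT12 in Libramed mice went from 0.62 to 1.17 (limma adjusted p = 0.0339). Its difference from vehicle at ZT12 went from 0.40 to 0.95, and that of Fabp2 from -0.24 to -0.33. Both differences from vehicle then passed the limma p under 0.05. Between times in Libramed mice, the sign changed for Cd36, from 0.11 to -0.070, and for Acsl5, from -0.099 to 0.077. In whole liver, fewer cells of a type and less RNA per cell cannot be told apart.

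The first comparison asked which members differed between ZT0 and ZT12. In vehicle mice, Fabp1 and Slc27a2 rose at ZT12 with an adjusted p under 0.05 in limma, and Acsl1 rose only at the unadjusted p. This was 2 of 9 members by adjusted p, where 10.4% of all symbols passed, and 3 of 9 by p under 0.05, where 27.4% passed. In Libramed mice, Slc27a2 and Acsl1 rose by adjusted p, 2 of 9 members against 12.4% of all symbols. At p under 0.05, 3 of 9 members passed there against 29.2%, the other being Fabp4, which fell.

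**Figure D2:**
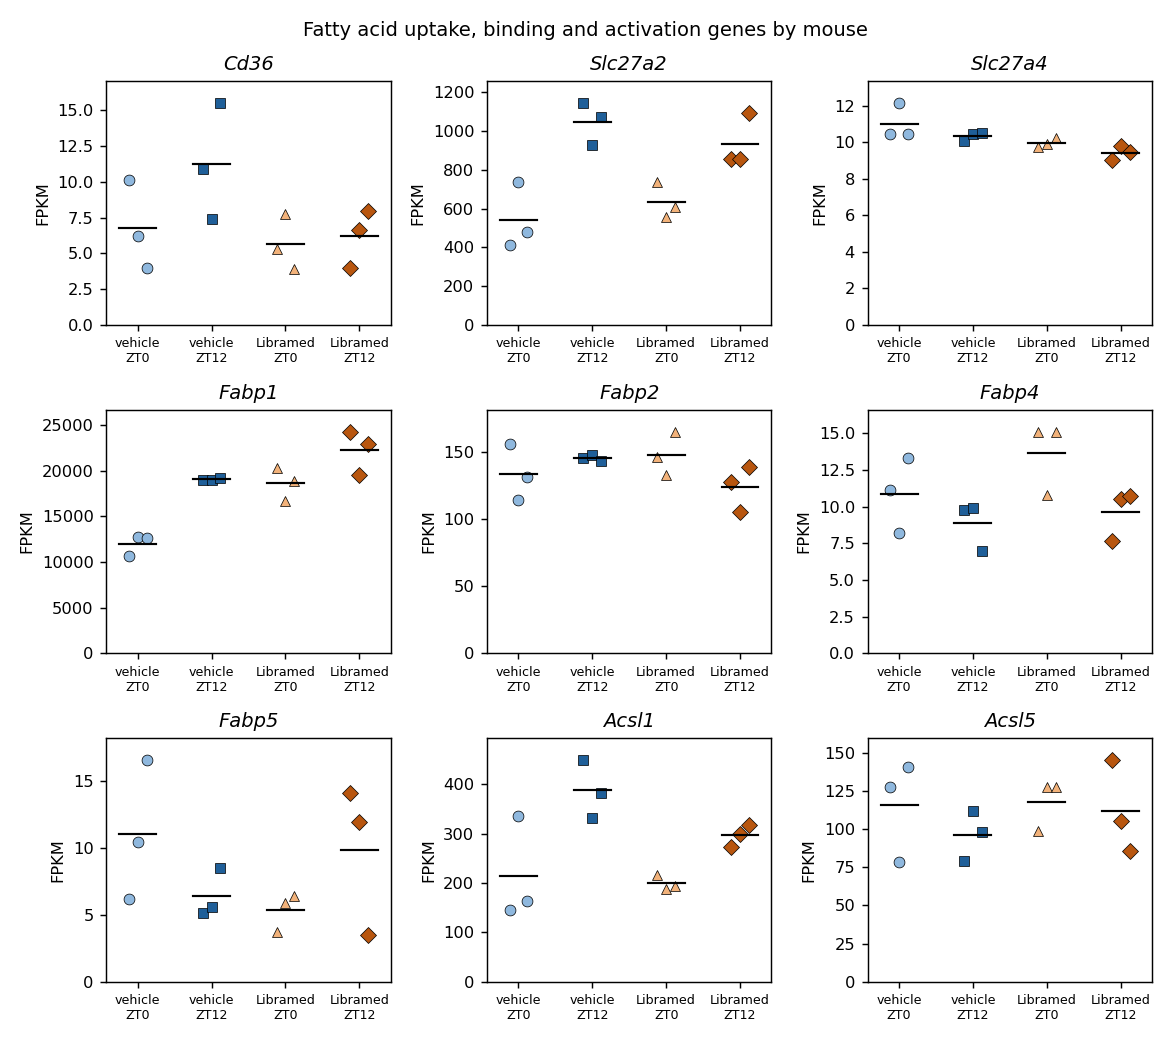
Expression of each gene in FPKM by group, on linear axes from 0, with 1 point per mouse and a bar at the mean of 3 mice. Slc27a2 is higher at ZT12 than at ZT0 in both treatments without overlap, and Fabp1 at ZT0 is lower in vehicle than in Libramed mice.

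Slc27a2 (chromosome 2, 126552407 to 126588243, mm10) showed the clearest difference between times. Vehicle mice had 409, 735 and 481 FPKM at ZT0 and 1143, 926 and 1071 FPKM at ZT12. Libramed mice had 738, 555 and 609 FPKM at ZT0 and 856, 858 and 1092 FPKM at ZT12. Every mouse at ZT12 stood above every mouse at ZT0, whatever the treatment, and no other member had this property over both treatments, where 13.3% of all symbols had it. On the log2(FPKM + 1) scale the rise was 0.99 (SE 0.22, n = 3 per group, limma adjusted p = 0.0358) with vehicle and 0.56 (SE 0.15, limma adjusted p = 0.0492) with Libramed. Over both treatments it was 0.77 (95% confidence interval 0.45 to 1.1, limma adjusted p = 0.00213), and the exact permutation test within treatments gave p = 0.005, the smallest it can give. The adjusted p within a treatment rose above 0.05 when any 1 library was removed other than vehicle ZT0 replicate 2 or Libramed ZT0 replicate 1, reaching 0.122 without vehicle ZT0 replicate 3 and 0.131 without Libramed ZT0 replicate 3, while the rise stayed at 0.81 or more in vehicle and at 0.44 or more in Libramed. Both adjusted calls were also lost in limma without a minimum FPKM, with quantile normalization and with a replicate block, at 0.081 to 0.121. The call in Libramed mice was lost too with a pseudocount of 0.1, at 0.0517, and in the fit over all 12 libraries, at 0.0815.

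Acsl1 (chromosome 8, 46471037 to 46536051) followed the same course with 1 exception among the mice. In vehicle mice it stood at 145, 335 and 163 FPKM at ZT0 and at 449, 332 and 381 FPKM at ZT12. The second ZT0 mouse lay within the ZT12 range, and the groups overlapped. In Libramed mice Acsl1 was at 217, 188 and 193 FPKM at ZT0 and at 273, 300 and 318 FPKM at ZT12, without overlap. The rise was 0.94 (SE 0.31, limma p = 0.0191, adjusted p = 0.104, exact permutation p = 0.2) with vehicle and 0.57 (SE 0.10, limma adjusted p = 0.0126) with Libramed. Without vehicle ZT0 replicate 2 the rise in vehicle mice was 1.31, whereas without vehicle ZT0 replicate 1 or 3 or vehicle ZT12 replicate 1 its p rose above 0.05. Over both treatments the difference was 0.76 (SE 0.18, limma adjusted p = 0.00689). The adjusted call in Libramed mice was lost in limma without Libramed ZT12 replicate 2, at 0.0534, and in the fit over all 12 libraries, at 0.150.

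Fabp1 (chromosome 6, 71199827 to 71205023) differed between times chiefly in vehicle mice. They had 10665, 12739 and 12648 FPKM at ZT0 and 18999, 18963 and 19247 FPKM at ZT12. The groups did not overlap, and the ZT12 mice had a coefficient of variation of 0.812%. Libramed mice had 20286, 16660 and 18893 FPKM at ZT0 and 24275, 19567 and 22944 FPKM at ZT12, which overlapped. The rise was 0.67 (SE 0.12, limma adjusted p = 0.0210) with vehicle and 0.26 (95% confidence interval -0.06 to 0.58, limma p = 0.0981, exact permutation p = 0.2) with Libramed. Removing vehicle ZT0 replicate 3 or any 1 of the vehicle ZT12 mice took the adjusted p above 0.05, to at most 0.102, with a rise of 0.66 to 0.71. Without a minimum FPKM the same rise in vehicle mice had a limma p above 0.05. With a replicate block it lost the adjusted call only. Fabp1 made up a mean of 1.79% of the summed FPKM in vehicle mice at ZT0 and 2.71% at ZT12, against 2.77% and 3.04% in Libramed mice. Over both treatments the rise was 0.46 (SE 0.10, limma adjusted p = 0.00404). With quantile normalization it was 0.26 (limma adjusted p = 0.0400), and without a minimum FPKM the limma adjusted p was 0.071.

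Fabp4, known from adipocytes, macrophages and capillary endothelium, went the other way. In Libramed mice it was at 15.1, 10.8 and 15.1 FPKM at ZT0 and at 7.66, 10.5 and 10.7 FPKM at ZT12, a fall of 0.46 on the log2 scale (limma p = 0.0274, adjusted p = 0.119, exact permutation p = 0.1) without overlap. In vehicle mice the values of 11.2, 8.23 and 13.3 FPKM at ZT0 and 9.75, 9.90 and 6.97 FPKM at ZT12 overlapped, with a difference of -0.26 (SE 0.19, limma p = 0.220, exact permutation p = 0.4). Leaving out either Libramed ZT0 replicate 1 or 3, or Libramed ZT12 replicate 1, ended the call at p under 0.05 in Libramed mice, while in vehicle mice the difference passed without vehicle ZT0 replicate 2, at -0.43. Markers of endothelial cells, when summed, were also lower at ZT12. Their sum was 45.4 to 55.5 FPKM at ZT0 and 30.0 to 31.4 FPKM at ZT12 in Libramed mice, and 36.1 to 45.3 against 17.3 to 32.3 FPKM in vehicle mice, with 7 of 8 and 8 of 8 markers lower at ZT12. Their part in the Fabp4 values was not tested. Of 8 adipocyte markers, 4 had a mean of at least 1 FPKM. These were Car3, also known from hepatocytes, at 1524 to 3205 FPKM, Cfd at 0.309 to 42.8 FPKM, Lipe at 6.37 to 11.3 FPKM and Adrb3 at 2.99 to 9.33 FPKM. Lep and Retn were listed at 0 in all 12 libraries, and Plin1 and Adipoq reached at most 0.0381 and 0.0493 FPKM. In Libramed mice the 8 markers summed to 2662 to 3220 FPKM at ZT0 and 2703 to 3035 FPKM at ZT12. Nearly all of that was Car3, with means of 2840 and 2817 FPKM, so the sum says little about adipocytes. Macrophage markers summed to 16.0 to 28.5 FPKM at ZT0 and 20.02 to 30.7 FPKM at ZT12 in Libramed mice, which overlapped. In vehicle mice they summed to 28.8 to 35.9 and 14.5 to 40.8 FPKM, which overlapped too. The part of either set in the Fabp4 values was not tested.

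Cd36, Fabp2 and Fabp5 passed neither threshold between times in the main limma fit with all libraries, and single mice weighed on each. In a rebuilt version of the Cyber-T test, Cd36 and Fabp5 passed both in vehicle mice (Cyber-T adjusted p = 0.0454 and 0.0467). Fabp5 there passed p under 0.05 in Libramed mice too. In limma with a replicate block, Fabp5 passed p under 0.05 in vehicle mice and Fabp2 in Libramed mice, where quantile normalization had the same result for Fabp2. Cd36 differed by 0.68 in vehicle mice (interval -0.13 to 1.49), and the limma p was under 0.05 without vehicle ZT0 replicate 1, at 0.98, or vehicle ZT12 replicate 2, at 0.93. In Libramed mice its difference was 0.11 (interval -0.53 to 0.75). Fabp5 differed by -0.64 in vehicle mice (interval -1.41 to 0.14), and by -0.96, past p under 0.05, without vehicle ZT0 replicate 1. In Libramed mice it differed by 0.62 (interval -0.42 to 1.66). Fabp2 differed by 0.13 in vehicle mice (interval -0.15 to 0.42) and by -0.26 in Libramed mice (interval -0.57 to 0.05), passing p under 0.05 without vehicle ZT0 replicate 1, at 0.25, and without Libramed ZT12 replicate 3, at -0.35.

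Over both treatments, 3 of 9 members passed the adjusted p for time, Fabp1, Slc27a2 and Acsl1, all of them higher at ZT12, against 29.7% of all symbols. At p under 0.05 it was 4 of 9, with Fabp4 lower, against 41.0%. Without Libramed ZT12 replicate 1, Fabp4 lost that call at -0.29 and Cd36 gained it, at 0.54 against 0.40 with all libraries. The median difference over the 9 members was -0.01, and 0.01 over all symbols tested. Groups did not overlap for 2 of 9 members in vehicle mice and for 3 of 9 in Libramed mice, against 33.2% and 34.9% of all symbols. At p under 0.05 the share of members was near that of all symbols in each of these comparisons.

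The second comparison asked how Libramed and vehicle mice differed at the same time of day. At ZT0, 2 of 9 members had p under 0.05, where 9.23% of all symbols passed, with Fabp1 higher and Fabp5 lower in Libramed mice. At ZT12 it was again 2 of 9, Cd36 and Acsl1, both lower in Libramed mice, where 6.74% passed. By adjusted p, 0 of 9 members and 0 of 9806 symbols passed at either time in limma, with 905 symbols at ZT0 and 661 at ZT12 under 0.05 unadjusted. A version of Cyber-T, run as another tool, called 69 and 23 of all symbols by adjusted p, and 0 members.

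**Figure D3:**
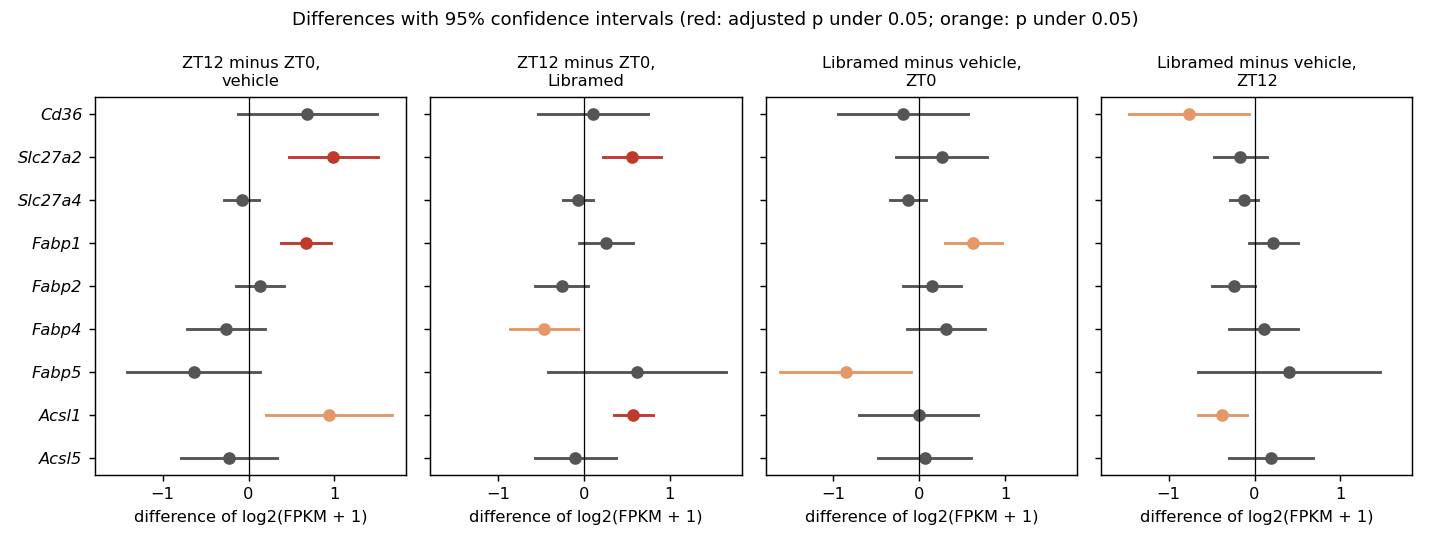
Difference of mean log2(FPKM + 1) for each gene in 4 comparisons of 3 mice against 3, with bars for the 95% confidence interval and colour for the limma p. The intervals of Slc27a2 lie above 0 in both comparisons of time, and that of Fabp1 at ZT0 lies above 0 in the comparison of treatments.

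At ZT0, Fabp1 had the smallest p of the members by treatment. Its 3 vehicle mice, at 10665 to 12739 FPKM, all lay below the 3 Libramed mice, at 16660 to 20286 FPKM. The difference was 0.63 (95% confidence interval 0.30 to 0.96, limma p = 0.00278, adjusted p = 0.333, exact permutation p = 0.1), a ratio of means of 1.55. Without a minimum FPKM the same difference had a limma p above 0.05. The hepatocyte markers also stood apart at ZT0, summing to 42116 to 46735 FPKM in vehicle and 47844 to 58756 FPKM in Libramed mice, with a higher mean for 7 of 8, though for Cps1 only 463.1 against 463 FPKM. Most of that difference came from Apoa1, with means of 22771 FPKM in vehicle and 29394 FPKM in Libramed mice. Serpina1a, at 1184 and 1224 FPKM, and Asgr1, at 717 and 752 FPKM, differed little. At ZT12 the marker sums of 43378 to 49223 and 46570 to 52937 FPKM overlapped, and the part of the markers in the Fabp1 values was not tested. The Libramed range of Fabp1 at ZT0 took in the whole vehicle range at ZT12. At ZT12 all 3 Libramed mice again stood above all 3 vehicle mice, by 0.22 (interval -0.07 to 0.50, limma p = 0.113, exact permutation p = 0.1), with 0.15 without Libramed ZT12 replicate 1 and 0.31, past p under 0.05, without Libramed ZT12 replicate 2. With 3 mice against 3, an exact permutation test cannot go below 0.1. Averaged over both times, Fabp1 was 0.42 higher with Libramed (SE 0.10, limma p = 0.000952, adjusted p = 0.259), and the exact permutation test within times gave 0.005, the smallest it can give.

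Fabp5, a binding protein known from skin, macrophages and many other tissues, varied widely between mice. It was at 6.20, 10.4 and 16.6 FPKM in vehicle mice and at 3.75, 5.88 and 6.46 FPKM in Libramed mice at ZT0. The groups overlapped at the lowest vehicle mouse. The difference was -0.86 (SE 0.32, limma p = 0.0329, adjusted p = 0.525, exact permutation p = 0.2), and it lost p under 0.05 when any of 4 of the 6 libraries was left out: vehicle ZT0 replicates 2 and 3 and Libramed ZT0 replicates 1 and 2, with -0.54 without vehicle ZT0 replicate 3. At ZT12 the order was turned, with 5.16, 5.56 and 8.51 FPKM in vehicle mice and 14.1, 12 and 3.53 FPKM in Libramed mice, a difference of 0.40 (interval -0.66 to 1.46). That difference rested on the libraries fitted, at 0.95 and past p under 0.05 in limma without Libramed ZT12 replicate 3, the one with muscle markers, and at 0.076 without Libramed ZT12 replicate 1. The macrophage markers summed to 28.8 to 35.9 FPKM in vehicle and 16.0 to 28.5 FPKM in Libramed mice at ZT0, and their part in the Fabp5 values was not tested.

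At ZT12, Acsl1 was lower in all 3 Libramed mice, at 273 to 318 FPKM, than in all 3 vehicle mice, at 332 to 449 FPKM. The difference was -0.37 (interval -0.66 to -0.08, limma p = 0.0187, adjusted p = 0.729, exact permutation p = 0.1), and without Libramed ZT12 replicate 1 the limma p was above 0.05. At ZT0 the difference was -0.01, with a wide interval of -0.70 to 0.69. Without vehicle ZT0 replicate 2, the mouse with high Acsl1, the ZT0 difference was 0.37 in the other direction, at a limma p under 0.05.

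Cd36, the scavenger receptor and fatty acid translocase, was at 10.9, 7.40 and 15.5 FPKM in vehicle mice and at 3.97, 6.63 and 7.96 FPKM in Libramed mice at ZT12. The groups overlapped, with the highest Libramed mouse above the lowest vehicle mouse. The difference was -0.76 (SE 0.30, limma p = 0.0374, adjusted p = 0.729, exact permutation p = 0.2), and leaving out vehicle ZT12 replicate 1 or 3 or Libramed ZT12 replicate 1 or 2 ended the call at p under 0.05, with values down to -0.52. Macrophage markers summed to 14.5 to 40.8 FPKM in vehicle and 20.02 to 30.7 FPKM in Libramed mice at ZT12, and endothelial markers to 17.3 to 32.3 and 30.0 to 31.4 FPKM. Their part in the Cd36 values was not tested. At ZT0, Cd36 was at 10.1, 6.24 and 3.95 FPKM in vehicle mice and 5.31, 7.78 and 3.88 FPKM in Libramed mice, a difference of -0.19 (interval -0.94 to 0.57). Over both times it was -0.47 (interval -1.01 to 0.06), which passed the limma p under 0.05 without vehicle ZT0 replicate 3 or Libramed ZT0 replicate 2, at -0.63 and -0.60.

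Slc27a4, a transport protein with acyl-CoA synthetase activity, stayed within 9.04 to 12.1 FPKM over the 12 mice. It was at 10.4, 12.1 and 10.4 FPKM in vehicle mice and at 9.76, 9.91 and 10.3 FPKM in Libramed mice at ZT0, and at 10.1, 10.5 and 10.5 FPKM against 9.04, 9.79 and 9.47 FPKM at ZT12. At each time the Libramed mice lay just below the vehicle mice without overlap. Averaged over both times the difference was -0.12 (interval -0.23 to -0.02, limma p = 0.0282, adjusted p = 0.452), with an exact permutation p of 0.005, the smallest possible. Median-ratio scaling and quantile normalization of the libraries both took the limma p above 0.05, as did leaving out any of 5 single libraries (vehicle ZT0 replicate 2, Libramed ZT0 replicate 1, vehicle ZT12 replicates 2 and 3 or Libramed ZT12 replicate 1), with values of -0.14 to -0.09 over all libraries left out.

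Fabp2 was at 156, 114 and 131 FPKM in vehicle mice and at 146, 132 and 165 FPKM in Libramed mice at ZT0. At ZT12 it was at 145, 147 and 143 FPKM in vehicle mice and at 127, 105 and 138 FPKM in Libramed mice, without overlap, a difference of -0.24 (interval -0.50 to 0.01, limma p = 0.0572, exact permutation p = 0.1). Markers of intestinal epithelium summed to at most 0.381 FPKM in any library, with Cdx1, Sis and Krt20 listed at 0 in all 12 and Vil1 in 5. Slc5a1 was above 0 in each library, at 0.0920 to 0.369 FPKM. The part of such cells in the Fabp2 values was not tested.

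At ZT12, groups did not overlap for 4 of 9 members, Fabp1 higher and Fabp2, Slc27a4 and Acsl1 lower with Libramed, where 13.1% of all symbols did not overlap. At ZT0 it was 2 of 9, Fabp1 and Slc27a4, against 15.1%. Over both times 2 of 9 members, Fabp1 and Slc27a4, had p under 0.05, where 10.1% of all symbols passed, and by adjusted p it was 0 of 9 against 0.0204%. The comparisons of time and of treatment share mice, so they are not independent of each other. For Slc27a2 the difference by treatment was 0.26 (interval -0.27 to 0.79) at ZT0 and -0.17 (interval -0.47 to 0.14) at ZT12, neither with p under 0.05. The ZT0 value turned on single mice, at 0.50 and past p under 0.05 without vehicle ZT0 replicate 2 and at 0.083 without vehicle ZT0 replicate 1.

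The third comparison asked whether the difference between times was the same with Libramed as with vehicle. At p under 0.05, 1 of 9 members passed the interaction test, where 6.63% of all symbols passed, and 0 of 9 passed by adjusted p, as did 0 of 9806 symbols in limma. The member was Fabp1, with a rise 0.41 smaller with Libramed (interaction -0.41, SE 0.16, limma p = 0.0280, adjusted p = 0.701, exact permutation p = 0.195). For the interaction, treatment labels were permuted within each time. This assumes no treatment difference at either time, so that p does not test the interaction alone. The limma p rose above 0.05 when 1 of 6 libraries was left out: vehicle ZT0 replicate 1, Libramed ZT0 replicates 1 and 3, vehicle ZT12 replicates 2 and 3 and Libramed ZT12 replicate 2, with values of -0.49 to -0.32 over all libraries left out. The interaction was -0.43 for Slc27a2 (interval -1.04 to 0.19) and -0.37 for Acsl1 (interval -1.14 to 0.40), neither with p under 0.05 when all mice were included. Without vehicle ZT0 replicate 2, the vehicle mouse with high Acsl1, both passed p under 0.05 in limma, at -0.67 for Slc27a2 and -0.74 for Acsl1, and without vehicle ZT0 replicate 1 they were -0.25 and -0.14. For Fabp5 it was 1.26 (interval -0.08 to 2.60, limma p = 0.0628, exact permutation p = 0.095), and it passed p under 0.05 without vehicle ZT0 replicate 1, vehicle ZT12 replicate 3 or Libramed ZT12 replicate 3, at up to 1.80. For Fabp2 it was -0.39 (interval -0.80 to 0.01, limma p = 0.0572, exact permutation p = 0.075), and it passed without vehicle ZT0 replicate 1, Libramed ZT0 replicate 2 or Libramed ZT12 replicate 3.

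Acsl5 and the row shared by Acsl3 and Utp14b passed no comparison at p under 0.05 with all libraries in the fit. Acsl5 was at 128, 78.3 and 141 FPKM in vehicle mice and 98.6, 127 and 128 FPKM in Libramed mice at ZT0, and at 79.3, 112 and 98.1 FPKM against 145, 105 and 85.3 FPKM at ZT12. The 4 groups overlapped throughout. The difference between times in vehicle mice was -0.23 (interval -0.79 to 0.33) and went to -0.49, past p under 0.05 in limma, without vehicle ZT0 replicate 2, and to -0.067 without vehicle ZT0 replicate 3. The shared row was at 15.9, 7.93 and 15.1 FPKM in vehicle mice and 10.5, 14.9 and 17.7 FPKM in Libramed mice at ZT0, and at 5.0, 10.2 and 9.43 FPKM against 15.7, 11.2 and 7.83 FPKM at ZT12. Acsl3, a synthetase known from lipid droplets, spans chromosome 1 from 78657825 to 78707743, and Utp14b (78658038 to 78671512) lies within it on the same strand, so these values cannot be assigned to Acsl3 alone.

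Mice that were high in Acsl1 were high in Slc27a2 and low in Acsl5, also within a group. Over the 12 libraries, Acsl1 and Slc27a2 had a Pearson correlation of 0.94 on the log2 scale, and of 0.92 after the group means were removed. Acsl1 and Acsl5 had -0.73, and -0.84 without the group means. Slc27a2 and Acsl5 had -0.64 and -0.87. The libraries share their group structure and a scaling to each library's total, so these values are descriptions of 12 livers. The vehicle ZT0 mouse with 335 FPKM of Acsl1 had the highest Slc27a2 of its group, 735 FPKM, and the lowest Acsl5, 78.3 FPKM.

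**Figure D4:**
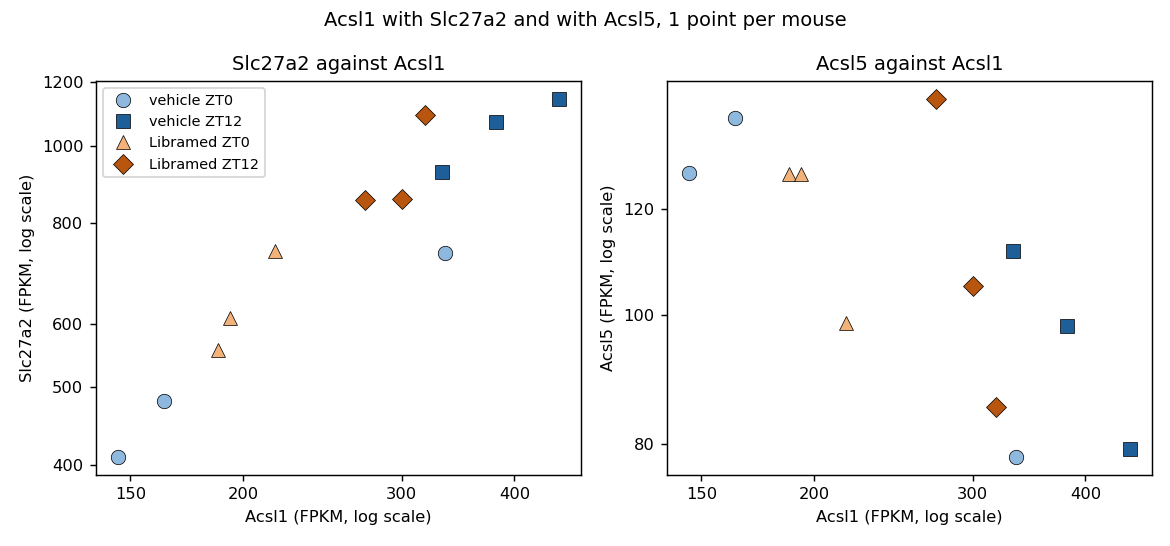
Slc27a2 (left) and Acsl5 (right) against Acsl1, in FPKM on log axes, with 1 point per mouse and the 4 groups marked by colour and shape. Slc27a2 climbs with Acsl1 across the 12 mice, while Acsl5 declines, and 1 vehicle mouse at ZT0 lies among the ZT12 mice for Acsl1.

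The symbols most like each member over the 12 libraries were listed by Pearson correlation. For Slc27a2 they were Slc25a20, the carnitine-acylcarnitine carrier of mitochondria, at 0.98, the phospholipase Pla2g6 at 0.97 and Hsd3b2 at 0.96. For Acsl1 they were Phf20l1, Slc25a20 and Pla2g6, each at 0.96, so both lists held the same carrier and phospholipase. The vehicle means of Slc25a20 were 71.5 ± 15.3 FPKM (SD, n = 3) at ZT0 and 117 ± 6.92 FPKM later, and the Libramed means were 73.9 ± 8.34 and 102 ± 9.89 FPKM. For Acsl5 they were C330021F23Rik and 1810008I18Rik, both at 0.95, and the fatty acid elongase Elovl5 at 0.94. The nearest to Fabp1 were Hdgfrp2, Ccs and Bphl, at 0.93 to 0.96. The nearest symbol to Cd36 was Tmem123, to Fabp2 Prdx4, to Fabp4 Psmc1, to Fabp5 Rora and to Slc27a4 Vcpip1, at 0.76 to 0.91.

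Other genes of uptake, binding and activation were taken from a list of 32, of which 18 had a mean of at least 1 FPKM. In vehicle mice 4 of 18 rose at ZT12 by adjusted p, where 5.62% of all symbols rose, and 0 fell, where 4.78% fell, with a median difference of 0.24 against 0.01 over all symbols. They were the medium-chain acyl-CoA synthetases Acsm5, Acsm3 and Acsm1, and Acss3, a synthetase for short chains, at 0.75 for Acsm3, 0.36 for Acsm1 and 0.95 for Acss3. Acsm5 rose by 0.83 (SE 0.07, limma adjusted p = 0.00324) with vehicle and by 0.39 (SE 0.10, limma adjusted p = 0.0432) with Libramed. In Libramed mice 2 of 18 rose, where 686 of 9806 symbols rose, and 0 fell. The other beside Acsm5 was Slc27a5, the liver's bile acid-CoA ligase and fatty acid transporter, by 0.47 (SE 0.08, limma adjusted p = 0.0138). Over both treatments 8 of 18 rose, where 15.9% of all symbols rose, and 1 fell, the acyl-CoA binding protein gene Acbd4, where 13.8% fell. Among the 8 was Acsf2, an acyl-CoA synthetase of mitochondria, by 0.47 (SE 0.09, limma adjusted p = 0.00319). In the comparisons of treatment and in the interaction, 0 of 18 passed by adjusted p in limma. At p under 0.05, 2 of 18 passed at ZT0, both higher with Libramed, where 9.23% of all symbols passed. At ZT12, 3 of 18 passed, all lower with Libramed, where 6.74% passed. The interaction was passed by 3 of 18, all negative, where 6.63% passed. Over both times 1 of 18 passed, higher with Libramed, where 10.1% passed.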

How the data were processed

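Liver RNA of 12 mice was analysed, with groups and replicate numbers taken from the sample labels. What the authors deposited is a single table that gives FPKM for each gene in each library. Their methods name single-end reads aligned with ELAND to mm10 and its splice junctions, unique matches only, and call the unit RPKM, whereas the submitters' processing notes name TopHat and Cuffnorm without versions, so the exact route to the FPKM values is uncertain. The labels name a library kit that does not mark strand and the methods a stranded one, so genes that overlap, such as Acsl3 and Utp14b, may share reads. Fabp3, among the listed genes and their relatives, has a processed pseudogene by name in GENCODE vM21.

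The table had 24138 lines. Where a symbol was repeated the line of highest mean stood for it, so that 289 lines were dropped and 23849 symbols remained. Values were tested as log2(FPKM + 1) for the 9806 symbols with a mean of at least 1 FPKM, by two-sided moderated tests in limma 3.58.1 (R 4.3.3), where eBayes modelled the trend of the variance on the mean. On this scale the change of a low gene is understated. The 4 comparisons of 3 mice against 3 were fitted on the 6 libraries concerned, and the interaction and both averaged comparisons on all 12. Calls used p under 0.05, the threshold of the study, and Benjamini-Hochberg adjusted p under 0.05 over all symbols tested. Confidence intervals are at 95%. Exact permutation tests, two-sided, used all 20 arrangements, or 400 within strata, where p cannot go below 0.1 or 0.005. Treatment labels were permuted within each time for the interaction and for treatment over both times, and time labels within each treatment for time. For the interaction this p does not test the interaction alone. The calculations were tested on simulated data.

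The genes and lists were chosen with earlier results of these data known. All 10 members were described. Genes of the lists of related genes, transcription factors and enzymes that use acyl-CoA were named where the adjusted p was under 0.05, at most 5 per list and comparison by p, plus Ppara and Pparg, and beside them genes that stood out in the interaction test. From the list of enzymes, 1 gene is not reported here. For each member the 3 symbols with the highest correlation were found. Acbd4 was named after its value was seen, as the only gene of its list that fell.

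Depth is known only relative to 1 library, so counting error could not be given, and the spread of the mice sets the precision. Same-numbered libraries of different groups did not deviate together (4 of 18 pairs with a correlation over 0.1, range -0.28 to 0.34), so mice were not treated as paired. Each result was recomputed with 1 choice changed: the pseudocount (0.1), the minimum (none, or 5 FPKM), the trend (none), the scaling (median-ratio or quantile), a replicate block, the libraries fitted (all 12), the test (Cyber-T as rebuilt here, with a window of 101 genes and a prior weight of 10), or 1 library left out.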

Additional observations from a re-analysis of the deposited data

Results flagged for a closer look

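The difference between times was not the same in both treatments, at an unadjusted p under 0.05 in limma, for Fabp1 and for 3 of 18 related genes, 2 of 9 transcription factors and 4 of 16 enzymes. Of those, 6 are given here, the ones named by adjusted p in a comparison of time and Pparg. None of these 6 or Fabp1 passed after adjustment over all symbols, with adjusted p from 0.519 to 0.740, and 6.63% of all symbols passed at the unadjusted level. Of all symbols, 3.82% passed with a positive interaction and 2.80% with a negative one, and 1 of the 2 transcription factors was positive. Naming genes for a rise with vehicle favours negative values, since that rise is subtracted. The interaction, as the rise with Libramed minus the rise with vehicle on the log2 scale, was -0.41 for Fabp1 (exact permutation p = 0.195). It was -0.44 for Acsm5 (limma p = 0.00338), where the exact permutation test gave 0.005, the smallest it can give, and the vehicle means were 35.1 ± 1.73 FPKM at ZT0 and 63.3 ± 0.866 FPKM at ZT12 (SD, n = 3). The value was -0.77 for Acss3, -0.38 for the acyl-CoA dehydrogenase Acadl, -0.97 for the thioesterase Acot1 and -0.85 for the related Acot2. For Pparg it was -0.95. The limma p of Acot1 rose above 0.05 in 8 fits with 1 library left out, without a minimum FPKM and with the replicate block. Among the genes given here, Acot1 and Fabp1 had an exact permutation p above 0.05, though that permutation does not test the interaction alone.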

How the results depend on the processing

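Across the other settings, not counting single libraries left out, 488 of the members' differences kept their direction and their side of p under 0.05, 10 lost it, 12 gained it and 3 changed sign. With 1 library left out the numbers were 462, 27, 23 and 28. The sign changes outside single libraries were Acsl1 by treatment at ZT0, at 0.0150 with median-ratio scaling and 0.0097 with quantile normalization, and the interaction of Slc27a4, at -0.0047 with quantile normalization. For time in vehicle mice, members with adjusted p under 0.05 went from 2 to 0 without a minimum FPKM, 1 with quantile normalization, 0 with the replicate block and 5 with Cyber-T, which also gave 5 at p under 0.05. For time in Libramed mice they went from 2 to 1 with a pseudocount of 0.1, no minimum, quantile normalization or the replicate block, and to 0 in the fit over all 12 libraries. Members with p under 0.05 by treatment at ZT0 went from 2 to 0 without a minimum and to 1 in the fit over all 12 libraries, which also gave 1 at ZT12. For the interaction they went from 1 to 0 without a minimum and to 2 with quantile normalization or the replicate block, and for treatment over both times from 2 to 1 with median-ratio scaling or quantile normalization. The replicate block, whose numbers do not pair the mice, also gave 4 members in place of 3 at p under 0.05 for time in vehicle and in Libramed mice and 3 in place of 2 for treatment at ZT0, and changed no other count of members. The cause of these changes was not tested.

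With 1 library left out, members with p under 0.05 ranged from 2 to 5 for time in vehicle and in Libramed mice, from 1 to 3 for treatment at ZT0, from 0 to 4 at ZT12, from 0 to 3 for the interaction, from 1 to 3 for treatment over both times, and stayed at 4 for time over both treatments. By adjusted p they ranged from 0 to 3 for time in vehicle mice, from 0 to 2 in Libramed mice and from 3 to 4 over both treatments, and were 0 in the comparisons of treatment and the interaction. Differences whose sign changed ranged, for time in Libramed mice, from -0.093 to 0.35 for Cd36 and from -0.30 to 0.077 for Acsl5. By treatment at ZT0 they ranged from -0.47 to 0.11 for Cd36, from -0.23 to 0.37 for Acsl1 and from -0.19 to 0.22 for Acsl5. By treatment at ZT12 they ranged from -0.039 to 0.25 for Fabp4 and from -0.011 to 0.37 for Acsl5. The interaction ranged from -0.059 to 0.041 for Slc27a4 and from -0.074 to 0.39 for Acsl5. Over both times, treatment ranged from -0.12 to 0.024 for Fabp2 and from -0.056 to 0.13 for Slc27a2. Over both treatments, time ranged from -0.13 to 0.0076 for Fabp2 and from -0.22 to 0.20 for Fabp5.

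Without a minimum 17066 symbols were tested, and 6151 with a minimum of 5 FPKM, against 9806. Adjusted calls for time in vehicle mice were 1020 of 9806, 515 without a minimum and 279 with the replicate block, and were 226 to 869 with 1 library left out, and 1539 in the fit over all 12 libraries. In Libramed mice they were 1212, 639 without a minimum and 709 with the block, and were 535 to 649 in 5 of the 6 sets with 1 library left out. At p under 0.05, without a minimum and with a minimum of 5 FPKM, the calls by treatment went from 905 to 1392 and 574 at ZT0 and from 661 to 1139 and 430 at ZT12, and those of the interaction from 650 to 1050 and 422, counts over these unequal numbers of symbols. Without a known read depth, the counting error of the low members, Cd36, Fabp4, Fabp5 and Slc27a4, cannot be set apart from the spread of the mice.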

Other observations

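Enzymes that use the acyl-CoA made by the Acsl proteins were counted as a list of 16, all of which were tested. In vehicle mice 5 of 16 rose at ZT12 by adjusted p in limma, where 5.62% of all symbols rose, and 0 fell, with a median difference of 0.31 against 0.01 over all symbols. In Libramed mice 2 of 16 rose, where 686 of 9806 symbols rose, and 0 fell. Dgat2, which completes triglyceride synthesis, rose by 0.59 with vehicle (limma adjusted p = 0.0197) and by 0.71 with Libramed (limma adjusted p = 0.00477). Cpt1a, the gate of fatty acids into mitochondria, rose by 0.78 with vehicle and by 0.54 with Libramed (limma adjusted p = 0.0166 and 0.0222). The other 3 that rose with vehicle were the acyl-CoA dehydrogenase Acadl, by 0.48, and the thioesterases Acot1 and Acot2, by 1.35 and 1.16. Over both treatments Ehhadh, an enzyme of peroxisomal oxidation, rose by 0.38 (limma adjusted p = 0.0194). By treatment and in the interaction, 0 of 16 passed by adjusted p in limma.

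Of 11 transcription factors and coactivators known to act on such genes, 9 were tested. The xenobiotic receptor Nr1i2 rose at ZT12 by 1.00 with vehicle and by 0.80 with Libramed (limma adjusted p = 0.00753 and 0.0245). Srebf1, the factor that drives fatty acid synthesis, rose by 1.04 and Hnf4a by 0.37 in Libramed mice (limma adjusted p = 0.0183 and 0.0221). In vehicle mice they differed by 0.32 (interval -0.67 to 1.31) and 0.24 (interval -0.03 to 0.51), and neither had an interaction with limma p under 0.05. Hnf4a rose by 0.31 over both treatments (limma adjusted p = 0.00491). Ppara rose at ZT12 by 0.40 over both treatments (limma adjusted p = 0.0148), from 34.9 ± 7.79 to 45.0 ± 5.12 FPKM (SD, n = 3) in vehicle mice and from 31.0 ± 4.69 to 42.0 ± 3.94 FPKM in Libramed mice. Rxra, the partner of PPARα, rose by 0.23 over both treatments (limma adjusted p = 0.0195). Pparg, at 3.83 ± 1.62, 8.61 ± 1.65, 4.99 ± 0.548 and 5.46 ± 1.6 FPKM in the same order of groups, passed no comparison by adjusted p.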
